A study of Ovis aries with 3 samples.

Results

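Macrophages and dendritic cells of the rumen epithelium were examined in single-cell RNA profiles from Hu sheep, a Chinese breed. These cells were taken as those with at least 3 UMIs summed over C1QA, C1QB, C1QC, AIF1 and TYROBP and at most 1 UMI of CD2 and IL7R together. A UMI is a molecular tag that marks 1 captured RNA molecule. Only barcodes with 500 or more detected genes entered, and the 13 genes of the mitochondrial genome had to give less than 20% of their UMIs. The rule found 58 cells among 15772 kept cells (0.368%), which came from 25789 barcodes in 3 libraries. All tissue came from lambs of 42 days. One library was from a lamb or lambs given milk and a concentrate starter, one from milk and alfalfa hay, and one from milk only, so milk was common to every diet. How many animals each library drew on, and how much feed they took, is not stated in the labels.

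The concentrate library held 25 of the 58 cells among 4891 kept cells, the hay library 15 among 7031 and the milk-only library 18 among 3850. Each diet had 1 library, so no test between diets was possible, and diet cannot be told apart from animal or library preparation. Intervals below are exact 95% intervals for counting error alone. Levels are CPM, UMIs of a gene scaled to a common total over the summed cells of a group in 1 library. The summed members held 102733 UMIs with concentrate, 64520 with hay and 243100 with milk only. In sparse sums of this size, 1 UMI was worth 9.73, 15.5 and 4.11 CPM in the concentrate, hay and milk-only members. No member shared its barcode with a member or a kept cell of another library.

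Macrophages take up dying cells, debris and microbes and degrade them in lysosomes. Dendritic cells load peptides on MHC class II molecules and present them to T cells. C1q, assembled from the products of C1QA, C1QB and C1QC, starts the classical complement pathway and is made mainly by tissue macrophages. AIF1 encodes an actin-binding protein of macrophages and related cells, and TYROBP encodes an adaptor that passes signals from activating receptors of myeloid cells. In stratified epithelia such as the rumen lining, both cell types sit among or below the keratinocytes.

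The 5 marker genes chose the members, so their values are a description. C1QA (ENSOARG00000008001) held more UMIs than any other marker in each library, at 3621, 2712 and 650 CPM in concentrate, hay and milk-only members. With milk only AIF1 was close to it, at 154 UMIs against 158. C1QC stood at 321, 310 and 103 CPM and C1QB at 350, 108 and 45.2 CPM in the same order. AIF1 (ENSOARG00000007932) was more even, at 993, 511 and 633 CPM, and TYROBP was low, at 68.1, 139 and 103 CPM. C1QA was present in 14 of 25, 13 of 15 and 7 of 18 members, and AIF1 in 22, 12 and 17 members. TYROBP was found in 6, 7 and 11 members. The C1q genes thus differed more between libraries than AIF1 and TYROBP did.

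The marker total per member ran from 3 to 79 UMIs with concentrate, from 3 to 45 with hay and from 3 to 71 with milk only, with medians of 10, 10 and 14. Just inside the limit, 7 members had exactly 3 marker UMIs and 3 had 4. Just outside it, 4 kept cells had 2 marker UMIs and 66 had 1. Of the 25 concentrate members, 4 had exactly 3 marker UMIs and 2 had 4. A marker minimum of 5 left 19 concentrate, 12 hay and 17 milk-only members.

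**Figure D1:**
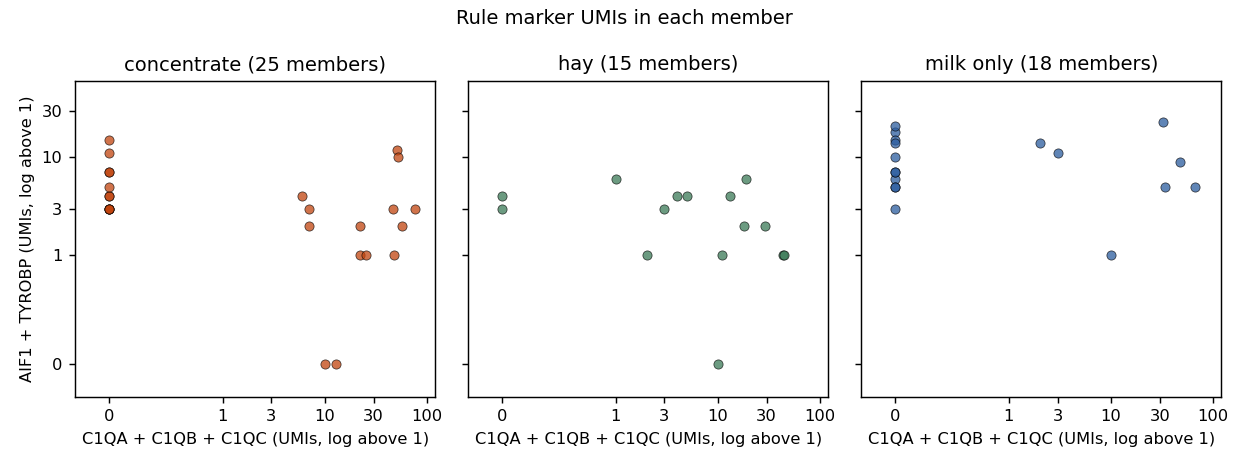
Marker UMIs of each member, with the sum of C1QA, C1QB and C1QC on the horizontal axis and the sum of AIF1 and TYROBP on the vertical axis (both log above 1, 0 shown), 1 panel per diet and 1 point per cell. A column of cells at 0 C1q holds 11 concentrate, 2 hay and 11 milk-only members.

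The limit on CD2 and IL7R bore most on the milk-only library. It set aside 11 concentrate, 6 hay and 79 milk-only cells that met the marker minimum. CD3D, CD3E and CD3G, which encode the T-cell receptor's CD3 chains, had no UMI in any member or in any set-aside cell. In milk-only cells with CD2 or IL7R but without the myeloid markers, 111 of 253 carried a CD3 UMI. The set-aside milk-only cells had C1QA at 1762 CPM, AIF1 at 652 CPM and HLA-DRA at 562 CPM, against 650, 633 and 415 CPM in the milk-only members. CD2 and IL7R stood at 422 and 552 CPM in them. Set-aside cells stayed among the other kept cells unless stated. Many diet ratios moved when they were counted as members, and the values with them are given for the gene lists and for the genes where that ends or turns a difference described here.

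Members were shallower than other kept cells in 2 libraries. Their median was 3746, 3605 and 12967 UMIs in the concentrate, hay and milk-only libraries, against 8075, 5890.5 and 11014.5 UMIs in other kept cells. Median mitochondrial shares were 4.44%, 4.73% and 4.44% in members and 10.2%, 9.75% and 6.19% in other kept cells. KRT15, a keratin of basal keratinocytes that gauges carried-over keratinocyte RNA, stood at 1353 CPM in concentrate members against 7793 CPM in other cells (17.4%). It stood at 806 against 6295 CPM with hay (12.8%) and at 3044 against 7546 CPM with milk only (40.3%). The 2 members richest in KRT15 held 84.9%, 71.2% and 75.8% of each library's member KRT15 UMIs, and 24 of the 58 members had none. Doublets were not removed, and whether the few KRT15-rich members are doublets was not tested.

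Markers of several other cell types were at or near 0 in the members. All 3 erythrocyte genes with a symbol and 5 of 7 mast cell genes had no UMI in any member, nor did 5 of 7 fibroblast and 8 of 10 B or plasma cell genes. Summed B or plasma cell markers came to 9.73, 31.0 and 37.0 CPM in the concentrate, hay and milk-only members. Keratinocyte markers summed to 2229, 2728 and 5389 CPM, against 12909, 11068 and 16121 CPM in other kept cells. The summed T or NK markers stood at 77.9, 108 and 383 CPM, and 79 of the 81 milk-only IL17F UMIs lay in 1 member that also held 217 KRT15 UMIs. Endothelial markers summed to 204, 46.5 and 555 CPM, against 22.7, 1.84 and 13.8 CPM in other kept cells, with PECAM1 at 535 of the 555 CPM with milk only. Neutrophil markers, with CXCL8 among them, summed to 448, 77.5 and 852 CPM in concentrate, hay and milk-only members, against 304, 174 and 3765 CPM in other kept cells. Monocyte markers summed to 165, 46.5 and 465 CPM, against 150, 57.1 and 2586 CPM. The part of such RNA in the results below was not tested.

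The label was checked on markers that the rule did not use. MRC1, the macrophage mannose receptor, stood at 302, 77.5 and 119 CPM in concentrate, hay and milk-only members and CSF1R, the receptor for macrophage colony-stimulating factor, at 97.3, 186 and 37.0 CPM. FCGR3A, an Fc receptor for immunoglobulin G, stood at 428, 341 and 152 CPM. CD68 and CD163, common macrophage markers, were at 5 and 3 UMIs or fewer in each library, and CD14 at 2 or fewer. For dendritic cells, CD1E, a lipid-antigen processing protein, stood at 331, 124 and 103 CPM. FLT3, the receptor that dendritic cell precursors need, had 9 UMIs with concentrate, 0 with hay and 16 with milk only. CLEC9A, a marker of cross-presenting dendritic cells, had 3 UMIs in all, each in a milk-only member, and BATF3 had 0. CCR7, which guides mature dendritic cells to lymph nodes, had none. Markers of both cell types were thus present in the members, while several textbook markers of each were at or near 0 UMIs at this depth.

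The share of members among kept cells was 0.511% with concentrate (0.331 to 0.754), 0.213% with hay (0.119 to 0.352) and 0.468% with milk only (0.277 to 0.738). The ratio was 1.09 for concentrate over milk only (0.573 to 2.13), 0.456 for hay over milk only (0.214 to 0.959) and 2.40 for concentrate over hay (1.21 to 4.89). Concentrate over milk only was below 1 under every other setting tried, at 0.88 with a marker minimum of 5, 0.876 with a common UMI minimum and 0.676 when 1000 genes were required. Each of those 3 had an interval that included 1, like the 1.09. Concentrate over hay was 1.54 (0.686 to 3.58) with at least 1000 genes. Without the CD2 and IL7R limit the marker-positive shares were 0.736% (0.516 to 1.02), 0.299% (0.185 to 0.456) and 2.52% (2.05 to 3.07) in concentrate, hay and milk only. Concentrate over milk only was then 0.292 and hay over milk only 0.119. With every cell thinned to 2000 UMIs and the limit kept, the ratios were 0.522 and 0.193. Hay had the lowest share in all of these settings.

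**Figure D2:**
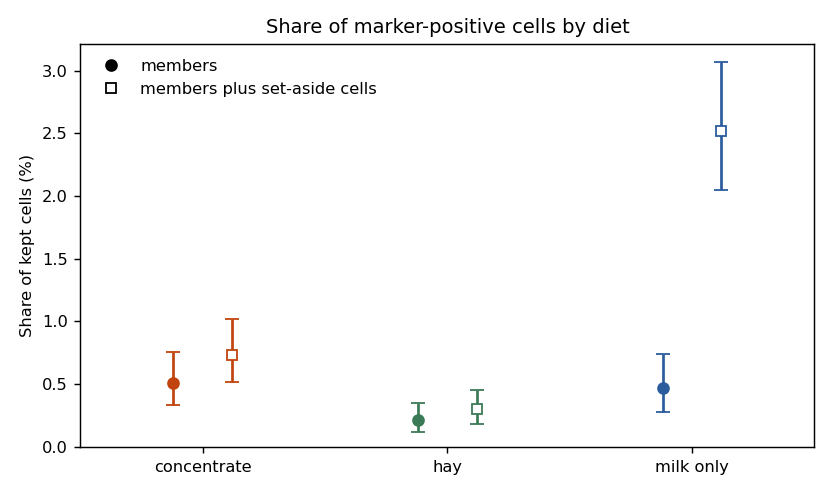
Share of kept cells in percent (vertical axis from 0) for members (filled circles) and for members plus set-aside cells (open squares) in each diet, with exact 95% binomial intervals as bars. Members lie between 0.213% and 0.511%, and with the set-aside cells milk only stands at 2.52%.

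Compared with other kept cells, members had higher levels of genes of antigen presentation, lysosomal proteolysis and leukocyte actin control. The members were chosen on RNA of the same cells, so the folds describe them and carry no test. Of 1045 genes with a mean of at least 100 CPM over the 3 member sums, 219 (21.0%) were at least 2-fold higher than in other kept cells in each library and 26 (2.49%) at least 2-fold lower in each. No gene class was left out of this count. The folds were smaller with milk only, where the other cells include 79 set-aside ones. For CTSS, which the rule did not use, they were 343, 514 and 27.3 in the concentrate, hay and milk-only libraries, and 663, 778 and 261 once set-aside cells were left out of the other cells.

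Genes of MHC class II presentation were higher in members for all 6 measured members of that list. CD74, the invariant chain that escorts class II molecules, stood at 419, 279 and 370 CPM in concentrate, hay and milk-only members, against 1.13, 0.576 and 14.4 CPM in other kept cells. HLA-DRA, the class II alpha chain, stood at 224, 217 and 415 CPM against 0.844, 0.443 and 16.2 CPM. HLA-DOB, a class II chain that tempers peptide loading, stood at 243, 170 and 128 CPM against 0.511, 0.509 and 2.54 CPM. CD86, a co-stimulator of T cells, stood at 165, 46.5 and 325 CPM against 0.333, 0.155 and 10.6 CPM. IFI30, a lysosomal thiol reductase that unfolds antigens, was the most abundant of the list, at 1110, 1255 and 2958 CPM against 182, 146 and 244 CPM. Low levels in other cells did not reach those of the members in any library for these 5 genes.

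Of lysosomal and scavenger genes 4 of 6 measured were higher, namely MRC1, CTSS, ASAH1 and GM2A. CTSS, the protease that trims the invariant chain, was found in each of the 58 members. It stood at 3271, 2449 and 1900 CPM in concentrate, hay and milk-only members, against 9.52, 4.76 and 69.6 CPM in other kept cells. ASAH1, acid ceramidase, stood at 321, 186 and 152 CPM against 47.1, 35.8 and 38.1 CPM. Of leading genes outside that list, NAAA, a lysosomal amidase of lipid amides, stood at 681, 341 and 1444 CPM against 11.9, 12 and 37.5 CPM. NAPSA, an aspartic protease, stood at 107, 139 and 53.5 CPM against 1.24, 0.421 and 1.78 CPM. CTSC, by contrast, was 1.69, 2.5 and 1.02 times as high in members as in other kept cells.

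Genes of immune receptors and their adaptors were among the leading ones. FCGR3A, described above, was 551, 616 and 29.2 times as high in concentrate, hay and milk-only members as in other kept cells. NFAM1, an ITAM-bearing receptor, stood at 146, 108 and 173 CPM against 0.555, 0.443 and 5.41 CPM. CLEC5A, a lectin receptor that signals through DAP adaptors, stood at 185, 124 and 609 CPM against 1.02, 0.376 and 25.3 CPM. PYCARD, the adaptor of inflammasomes, stood at 535, 527 and 411 CPM against 12.9, 8.77 and 12.6 CPM.

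The complement list was higher for all 4 measured members, of which 3 are the rule's own C1q genes. The remaining one was CFD, factor D, the protease that activates the alternative pathway. CFD (ENSOARG00000009779) stood at 1343, 201 and 177 CPM in concentrate, hay and milk-only members against 0.755, 0.177 and 3.23 CPM in other kept cells. A single concentrate member held 61.6% of the concentrate CFD UMIs. CFP, properdin, which stabilises the alternative convertase, was below the 100 CPM mean, with 6, 1 and 26 UMIs.

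Leukocyte actin and adhesion genes were higher for 13 of 17 measured. VIM, vimentin, stood at 3193, 2216 and 1617 CPM in concentrate, hay and milk-only members against 76.4, 4.69 and 73.0 CPM in other kept cells. LCP1, an actin bundler of leukocytes, stood at 934, 1441 and 880 CPM against 5.37, 3.32 and 50.7 CPM. PTPRC, the pan-leukocyte phosphatase CD45, stood at 370, 635 and 436 CPM against 3.37, 1.31 and 41.6 CPM. FTH1, the ferritin heavy chain that stores iron, was the highest of the iron list, at 11837, 8447 and 8153 CPM against 997, 912 and 1582 CPM. CD44, which keratinocytes also express, was only 1.94, 2.40 and 1.63 times as high in members.

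Other leading genes were less tied to a known list. SDS, a serine dehydratase, stood at 175, 31.0 and 362 CPM in concentrate, hay and milk-only members against 0.999, 0.332 and 9.01 CPM in other kept cells. FGL2, a fibrinogen-like protein of macrophages and T cells, stood at 156, 263 and 98.7 CPM against 0.999, 0.531 and 2.67 CPM. TNNI2, named for fast skeletal muscle troponin, stood at 370, 232 and 239 CPM against 1.02, 0.686 and 9.81 CPM. TRPV2, a cation channel of macrophages, stood at 127, 201 and 111 CPM against 1.55, 0.864 and 4.83 CPM. Others among the 30 genes with the largest lowest fold were C1orf54, EMILIN2, MEFV, BCL2L15, PARM1, PAK1, FERMT3, PPP1R14A and RGS10.

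**Figure D3:**
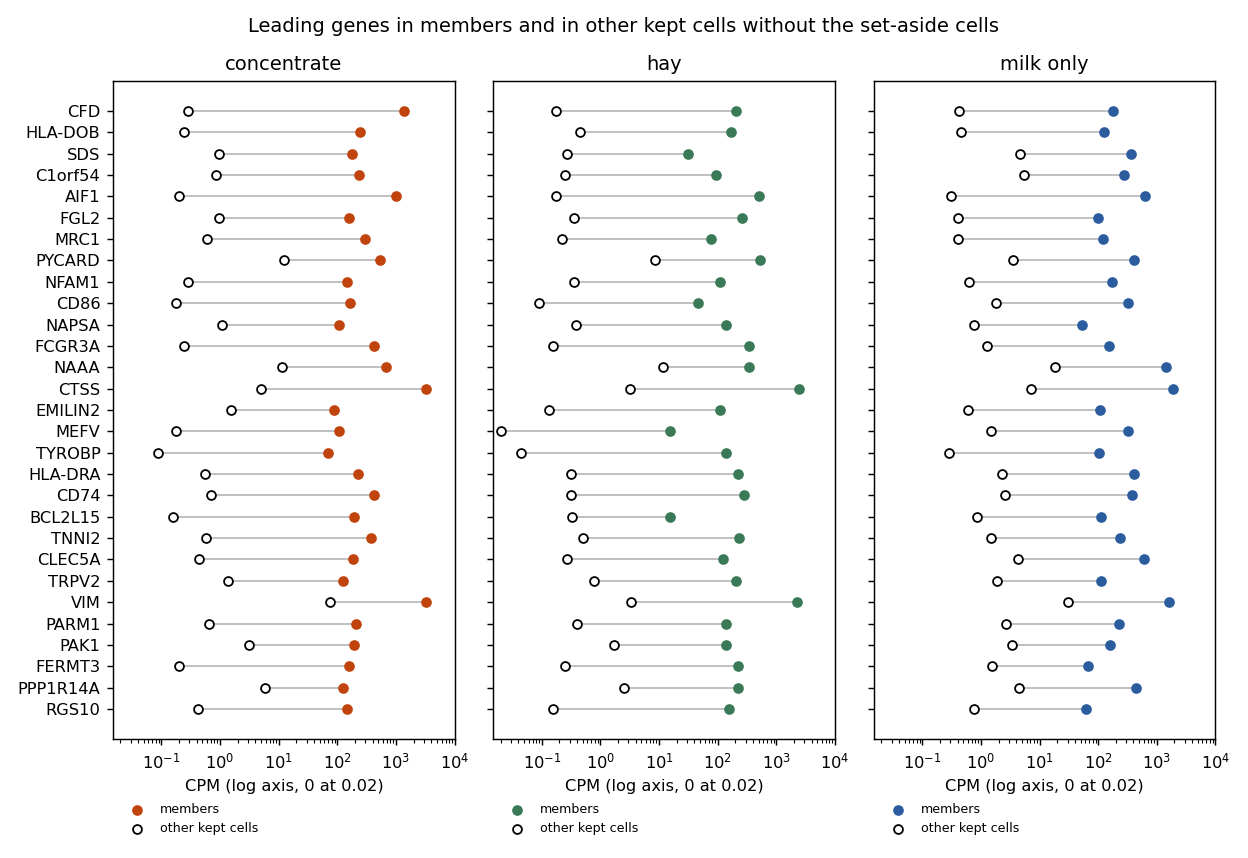
Levels in CPM (log axis, 0 drawn at 0.02) of genes with the largest lowest fold, in members (filled) and in other kept cells without the set-aside cells (open), 1 panel per diet. Every filled point lies to the right of its open point, and CTSS and VIM reach 3271 and 3193 CPM in concentrate members.

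Members differed among themselves in C1q. At least 1 C1q UMI was found in 34 members (14 with concentrate, 13 with hay, 7 with milk only) and none in 24 (11, 2 and 11). The medians were 3706 UMIs in C1q-positive and 3791 UMIs in C1q-zero concentrate members, and 8886 and 13786 UMIs with milk only, so the cells without C1q were not the shallower ones. Only the concentrate library had at least 10 members on each side. The split used values of the same cells, so the following are descriptions.

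In concentrate members, HLA-DOB was the gene most tilted away from C1q. It stood at 37.3 CPM in C1q-positive and 468 CPM in C1q-zero cells, which is 12.5-fold higher without C1q (3.10 to 110). Set-aside cells included, these were 125 and 427 CPM, 3.41-fold higher without C1q. With milk only it stood at 73.3 CPM and 163 CPM, 2.22-fold higher without C1q (0.928 to 6.10). FCGR3A tilted the other way, at 728 CPM with C1q against 102 CPM without in concentrate members, and at 377 against 6.78 CPM in milk-only members. LIPA, lysosomal acid lipase, stood at 317 CPM with C1q against 20.3 CPM without, and at 136 against 40.7 CPM with milk only. With the set-aside cells, C1q-positive over C1q-zero was 8.74 and 21.8 for FCGR3A and 9.02 and 5.17 for LIPA in concentrate and milk only. CTSS differed less, with ratios of 1.65 (1.31 to 2.08) with concentrate and 1.73 (1.43 to 2.09) with milk only in favour of C1q-positive members. AIF1 was 765 CPM with C1q and 1241 CPM without in concentrate members, and 628 and 637 CPM with milk only, and with the set-aside cells 1002 and 1133 CPM with concentrate and 843 and 496 CPM with milk only.

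The remaining genes that led the split rested on few UMIs. GOLGB1, EMP1, LYVE1, CITED2, IER3, EPS15, CHORDC1, EGR1 and IFNGR1 led among C1q-positive concentrate members. H2AFJ, ACAP1, VPS29, SUGT1, APPL1, COX18, CYHR1, IFT122 and KDM1B led among C1q-zero ones. GOLGB1 had 19 UMIs against 1 with concentrate but ran the opposite way with milk only, at 126 CPM with C1q and 190 CPM without. That last order turned with the set-aside cells, at 149 CPM with C1q and 124 CPM without. LYVE1, a hyaluronan receptor of some tissue macrophages and of lymphatic vessels, had 15 UMIs in 3 C1q-positive concentrate members and 1 UMI in a C1q-zero member. FSCN1, an actin bundler of mature dendritic cells, had 3 UMIs in C1q-positive and 21 in C1q-zero milk-only members, and none with concentrate or hay. KRT15 was 5926 CPM in C1q-positive and 1179 CPM in C1q-zero milk-only members, but 344 and 217 of the 566 C1q-positive UMIs lay in 2 cells, and with the set-aside cells the levels were 1703 and 1687 CPM.

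Between diets, genes that reached 100 CPM in the members of either library were compared, and those 2-fold or more apart were counted. Concentrate members differed from milk-only members in 386 of 1245 genes (31.0%), of which 251 (20.2%) were higher with concentrate and 135 (10.8%) lower. Hay members differed from milk-only members in 460 of 1305 genes (35.2%), 309 higher (23.7%) and 151 lower (11.6%). Concentrate members differed from hay members in 339 of 1337 genes (25.4%), 148 higher (11.1%) and 191 lower (14.3%). The median log2 ratio over measured genes was 0.18, 0.29 and -0.03 in the 3 comparisons. Median-of-ratios scaling moved it to -0.01, 0.03 and 0.04 and gave splits of 202 higher and 171 lower, 241 and 203, and 160 and 172. The direction of single genes below is to be read against those medians, and the first 2 comparisons share the milk-only members. Counts within gene lists are to be read against the shares over all measured genes given here.

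Immediate early genes, the transcription factors that cells switch on soon after a stimulus, included several that were high in concentrate members. FOS (ENSOARG00000001783) stood at 5539 CPM in concentrate members (5093 to 6013), 1379 CPM in hay members (1108 to 1698) and 103 CPM in milk-only members (66.6 to 152). Its UMIs lay in 23 of 25, 12 of 15 and 9 of 18 members, and after thinning each member to 1000 UMIs in 21, 8 and 1. The ratio was 53.9 for concentrate over milk only (36.1 to 83.9), 13.4 for hay over milk only (8.53 to 21.8) and 4.02 for concentrate over hay (3.21 to 5.08). In other kept cells milk only was the highest instead, at 522, 446 and 1274 CPM in concentrate, hay and milk only, so that FOS was 10.6-fold above other cells in concentrate members and at 0.0807 of them in milk-only members.

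JUN and ATF3 were also higher with either solid feed than with milk only. JUN, which pairs with FOS in the AP-1 factor, stood at 3134, 1689 and 136 CPM in concentrate, hay and milk-only members, with ratios over milk only of 23.1 (16.1 to 34.1) and 12.4 (8.36 to 19.0). ATF3, a stress-induced factor of the same family, stood at 857, 403 and 37.0 CPM, with ratios of 23.1 (11.6 to 52.3) and 10.9 (4.94 to 26.4). ZFP36, which destabilises inflammatory mRNAs, stood at 1762, 294 and 222 CPM, with concentrate at 7.93 over milk only (5.82 to 11) and 5.98 over hay (3.72 to 10.2). In other kept cells concentrate over milk only was 0.332 for JUN, 0.167 for ATF3 and 0.116 for ZFP36. With the set-aside cells counted as members, concentrate over milk only was 24.6 for FOS, 6.64 for JUN, 4.52 for ATF3 and 2.03 for ZFP36. Hay over milk only was then 7.06 for FOS, 3.46 for JUN and 2.21 for ATF3, and 0.455 for ZFP36, which thus turned from 1.33 in members alone.

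Over the whole list of immediate early genes and NF-kB feedback genes, 8 of 14 measured were higher and 1 lower in concentrate than in milk-only members, with a median log2 ratio of 1.62 against 0.18 for all measured genes. In other kept cells 13 of these 14 were lower with concentrate. Hay against milk only was mixed, with 4 of 11 higher and 5 lower and a median of -0.48. Concentrate against hay had 11 of 13 higher and 0 lower, with a median of 2.01. Medians with the set-aside cells were 0.84, -1.13 and 2.17. The counts were then 7 higher and 1 lower for concentrate over milk only, 3 and 6 for hay over milk only, and 11 and 0 for concentrate over hay. NFKBIA, NFKBIZ and FOSB were among the genes of this list that differed between concentrate and hay. NFKBIA, which holds NF-kB in the cytoplasm, stood at 5149 CPM in concentrate, 279 CPM in hay and 3632 CPM in milk-only members. Hay alone was low, with NFKBIA 18.5-fold higher in concentrate than in hay members (11.6 to 31.4) and 13.0-fold lower in hay than in milk-only members (8.19 to 22.1). NFKBIZ, a nuclear relative, stood at 399, 31.0 and 255 CPM, the hay value resting on 2 UMIs of 1 member. FOSB stood at 302, 15.5 and 53.5 CPM, the hay value being 1 UMI.

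Heat shock genes, which encode chaperones of damaged proteins, were higher in members with either solid feed than with milk only. HSPA6, an inducible chaperone in humans, had 46 UMIs in concentrate members, 16 in hay members and 0 in milk-only members, which makes it at least 36.3-fold and at least 20.1-fold higher with concentrate and hay, against 3 counts over the milk-only sum. BAG3, a chaperone partner induced with it, stood at 1226, 635 and 61.7 CPM, with ratios over milk only of 19.9 (11.6 to 36.6) and 10.3 (5.58 to 20). HSPH1 stood at 458, 372 and 132 CPM and HSPA8, the constitutive chaperone, at 4049, 4557 and 1859 CPM. In other kept cells BAG3 was level, with concentrate over milk only at 1.08 and hay over milk only at 1.19. Of the list, 9 of 11 measured were higher in concentrate than in milk-only members and 0 lower, with a median of 1.74. In other kept cells 1 of the 11 was higher and 1 lower, with a median of 0.11. Hay over milk only had 5 of 9 higher, 0 lower and a median of 1.29, and concentrate over hay had none of 11 past 2-fold, with a median of 0.84. Counted with the set-aside cells, 9, 6 and 4 were higher in these comparisons and 0 lower.

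Interleukin-1 beta ran the opposite way and was highest with milk only. IL1B (ENSOARG00000020866), a cytokine of activated myeloid cells, stood at 740 CPM in concentrate members (583 to 926), 170 CPM in hay members (85.1 to 305) and 4554 CPM in milk-only members (4289 to 4830). It was 6.16-fold lower in concentrate than in milk-only members (4.88 to 7.87) and 26.7-fold lower in hay than in milk-only members (14.9 to 53.7). It was found in 11 of 25, 5 of 15 and 15 of 18 members, and the highest milk-only member held 31.3% of that library's IL1B UMIs. Set-aside cells had 3940, 78.3 and 11788 CPM, and with them the ratio of concentrate over milk only was 0.163. BCL2A1, a survival gene under NF-kB control, stood at 97.3, 77.5 and 913 CPM, 9.38-fold lower with concentrate (5.01 to 19.8) and 11.8-fold lower with hay (4.97 to 36.6) than with milk only.

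Other cytokine genes differed in pattern. CXCL8, a neutrophil-attracting chemokine, stood at 331 CPM in concentrate, 31.0 CPM in hay (2 UMIs) and 210 CPM in milk-only members, with concentrate over hay at 10.7 (2.74 to 91.7). Its ratio of concentrate over milk only was 1.58 (0.991 to 2.48) in members and 0.658 with the set-aside cells. CSF1, which sustains macrophages, stood at 175, 46.5 and 4.11 CPM, the last being 1 UMI, with concentrate over milk only at 42.6 (6.73 to 1775). IL18BP, which neutralises interleukin-18, had 1 UMI with concentrate, 0 with hay and 63 in 8 milk-only members. The cytokine list had 2 of 7 measured higher and 3 lower for concentrate against milk only, with a median of -0.43. Hay against milk only had 0 of 5 higher and 4 lower, with a median of -2.76, and concentrate against hay had 4 of 5 higher and 0 lower, with a median of 1.91. These medians became, with the set-aside cells, -0.56, -4.10 and 2.60. In other kept cells, set-aside cells among them, 4 of the 7 were lower with concentrate and 3 of the 5 with hay. In both, 0 were higher. Concentrate over hay had 3 higher and 0 lower. Medians there were -1.68, -5.06 and 1.10. Those other cells held 79 set-aside cells with milk only, against 11 with concentrate and 6 with hay, and their part in these medians was not tested. Over all measured genes in members, 20.2% were higher and 10.8% lower with concentrate, and 23.7% and 11.6% with hay.

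Some co-stimulation and presentation genes were lower with either solid feed than with milk only. CD40, the receptor through which T cells license dendritic cells, stood at 97.3, 93 and 313 CPM in concentrate, hay and milk-only members, 3.21-fold lower with concentrate (1.65 to 6.97) and 3.36-fold lower with hay (1.48 to 9.45). CD86 was 1.96-fold lower with concentrate (1.15 to 3.54) and, on 3 UMIs, 6.99-fold lower with hay (2.31 to 34.6). CD274, the checkpoint ligand PD-L1, had 2, 2 and 48 UMIs, which is 19.5, 31.0 and 197 CPM. IFI30 was 2.67-fold lower with concentrate (2.18 to 3.28) and 2.36-fold lower with hay (1.87 to 3). HLA-DRA was 1.86-fold lower with concentrate (1.17 to 3.06) and 1.91-fold lower with hay (1.09 to 3.63), while CD74 differed by less than its counting interval in all 3 comparisons. HLA-DOB ran the other way, at 243 and 170 against 128 CPM. The class II list had 2 of 6 measured lower and 0 higher for concentrate against milk only, with a median of -0.93. For hay 3 of 7 were lower and 1 higher, with a median of -0.94. In other kept cells, set-aside ones among them, 5 of the 6 were lower with concentrate and 6 of the 7 with hay. There 0 were higher, and the medians were -3.04 and -3.36. With the set-aside cells 4 were lower and 1 higher with concentrate, and 4 lower and 0 higher with hay. The mature dendritic cell list shares genes with the class II list, CD40 and CD86 among them. It had 2 of 4 lower with concentrate and 3 of 4 lower with hay, with medians of -1.33 and -2.21. With the set-aside cells 3 and 4 of the 4 were lower. In other kept cells 4 of the 4 were lower with either feed, with medians of -3.25 and -4.12. The other kept cells held 79 set-aside cells with milk only, against 11 with concentrate and 6 with hay. Whether cells without the marker genes also had lower levels of these 2 lists with solid feed was not tested. Over all measured genes in members, 10.8% were lower with concentrate and 11.6% with hay.

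Macrophage genes that the rule did not use were higher with concentrate than with milk only for 3 of 4 measured, against 20.2% of all measured genes. Of these 4, 0 were lower and the median was 1.42. Hay against milk only had 2 of 3 higher, against 23.7% of all measured genes, and 0 lower, with a median of 1.16. Counting the set-aside cells too, 4 of the 4 were higher with concentrate (median 1.38), whereas with hay 1 was higher and 1 lower, MRC1 being the lower one at 0.432. FCGR3A was 2.81 times as high with concentrate (1.78 to 4.48) and 2.24 times with hay (1.26 to 3.90). MRC1 was 2.53 times as high with concentrate (1.47 to 4.35), but in hay members at 0.650 times the milk-only level (0.196 to 1.70). LYVE1 had 16 UMIs in 4 concentrate members, 0 with hay and 3 with milk only. In other kept cells LYVE1 was also higher with concentrate than with hay, at a log2 ratio of 6.16. CSF1R was 5.02 times as high with hay as with milk only, and 1.995 times with the set-aside cells. C1QA, a rule gene, was 5.57 and 4.17 times as high with concentrate and hay as with milk only, and 2.59 and 2.07 times with the set-aside cells.

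The share of C1q-zero cells differed between diets: they made up 11 of 25, 2 of 15 and 11 of 18 members with concentrate, hay and milk only. The part of this mix in the diet ratios was examined only with C1q-positive or with C1q-zero members alone. FOS was higher with concentrate in both groups, at 6663 CPM in C1q-positive concentrate members against 83.8 CPM in C1q-positive milk-only members, and at 4313 against 115 CPM in C1q-zero ones. IL1B was lower with concentrate in both, at 971 against 7486 CPM and at 488 against 2656 CPM.

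Lysosomal genes had 5 of 7 measured higher and 0 lower for concentrate against milk only, with a median of 1.08. Over all measured genes 20.2% were higher, with a median of 0.18. For hay, 2 of 6 lysosomal genes were higher, with a median of 0.46. That was near the 23.7% and the median of 0.29 over all measured genes. Set-aside cells included, 1 of the 7 was higher with concentrate (median 0.59), and with hay 2 were higher and 1 lower (median 0.41). CTSS, at 1.72 (1.49 to 1.98) and 1.29 (1.07 to 1.55), was below 2-fold in both. CTSC, the peptidase that activates granule proteases, was 2.02 times as high with concentrate (1.49 to 2.74) and 3.41 times with hay (2.52 to 4.61), and 1.68 and 2.24 times with the set-aside cells. CFD was 7.59 times as high in concentrate as in milk-only members (5.36 to 11), and its log2 ratio was 1.57 once the member with most CFD UMIs was left out of each library.

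Among single genes outside these groups, S100A4, a calcium-binding protein of motile cells, was highest with hay. It stood at 2093, 4448 and 457 CPM in concentrate, hay and milk-only members, with ratios over milk only of 4.58 (3.63 to 5.82) and 9.74 (7.80 to 12.2). IFI6, an interferon-induced gene, stood at 565, 465 and 69.9 CPM, whereas ISG15, another, stood at 117, 0 and 263 CPM, so interferon genes did not move together. RUNX3, a factor of lymphocytes and Langerhans cells, stood at 146, 217 and 16.5 CPM, the last being 4 UMIs, with ratios over milk only of 8.87 (2.83 to 36.7) and 13.2 (4.14 to 55.0). With set-aside cells those ratios were 1.91 and 3.15. DAB2, an endocytic adaptor found in macrophages, had 20, 2 and 2 UMIs, with 45% of the concentrate UMIs in 1 member, and concentrate over milk only at 23.7 (5.75 to 209) and at 10.9 with the set-aside cells.

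Several further genes were lower with solid feed, and some of them rested on few milk-only members. TIMP1, an inhibitor of matrix proteases, stood at 107, 248 and 1625 CPM, and 1 milk-only member held 60% of its UMIs. PECAM1, an adhesion molecule of endothelium and leukocytes, stood at 48.7, 46.5 and 535 CPM. TNFAIP6, a hyaluronan-binding protein, had 96 UMIs in 3 milk-only members and 0 with either solid feed, and APOBEC3Z1, a cytidine deaminase, had 138 UMIs in 3 milk-only members and 0 elsewhere. DNASE1L3, a nuclease of dendritic cells and macrophages, had 2, 0 and 76 UMIs. CST7, a cathepsin inhibitor, had 0, 0 and 49 UMIs. TBC1D4, a regulator of vesicle traffic, had 4, 0 and 58 UMIs, the last in 10 of 18 members.

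Summed levels of proliferation and keratin genes also differed. TOP2A, a topoisomerase of dividing cells, stood at 234, 387 and 57.6 CPM in concentrate, hay and milk-only members, on 24, 25 and 14 UMIs in 6, 7 and 3 cells. DNMT1, which maintains DNA methylation in dividing cells, stood at 175, 527 and 74.0 CPM and was 3.01-fold lower in concentrate than in hay members (1.65 to 5.66), but 1.75-fold lower with the set-aside cells. For TOP2A concentrate over milk only was 4.06 (2.02 to 8.48) in members and 1.69 with the set-aside cells, and hay over milk only 6.73 (3.37 to 14) and 2.85. Of 3 cell cycle genes measured against other kept cells, 0 were at least 2-fold higher in each library. The list summed to 1149, 1162 and 350 CPM in concentrate, hay and milk-only members, against 770, 525 and 574 CPM in other kept cells. Between diets it had 3 of 3 measured higher for concentrate and 3 of 4 for hay over milk only, with medians of 2.02 and 2.12. With the set-aside cells 2 of 3 and 4 of 4 were higher, and in other kept cells 1 of 3 and 0 of 4. Over all measured genes in members, 20.2% and 23.7% were higher. KRT15 was 2.25-fold lower in concentrate than in milk-only members (1.87 to 2.72) and 3.78-fold lower in hay than in milk-only members (2.85 to 5.10), and 1.73-fold and 2.24-fold lower with the set-aside cells. These KRT15 sums rested on few cells, as 2 members held 84.9%, 71.2% and 75.8% of the UMIs with concentrate, hay and milk only. The median member stood at 201, 256 and 233 CPM, so typical members were nearly level. Genes that were high with hay on few UMIs were RBP2, with 13 UMIs of which 76.9% lay in 1 member, RRM2 with 8 and HTATIP2 with 9.

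**Figure D4:**
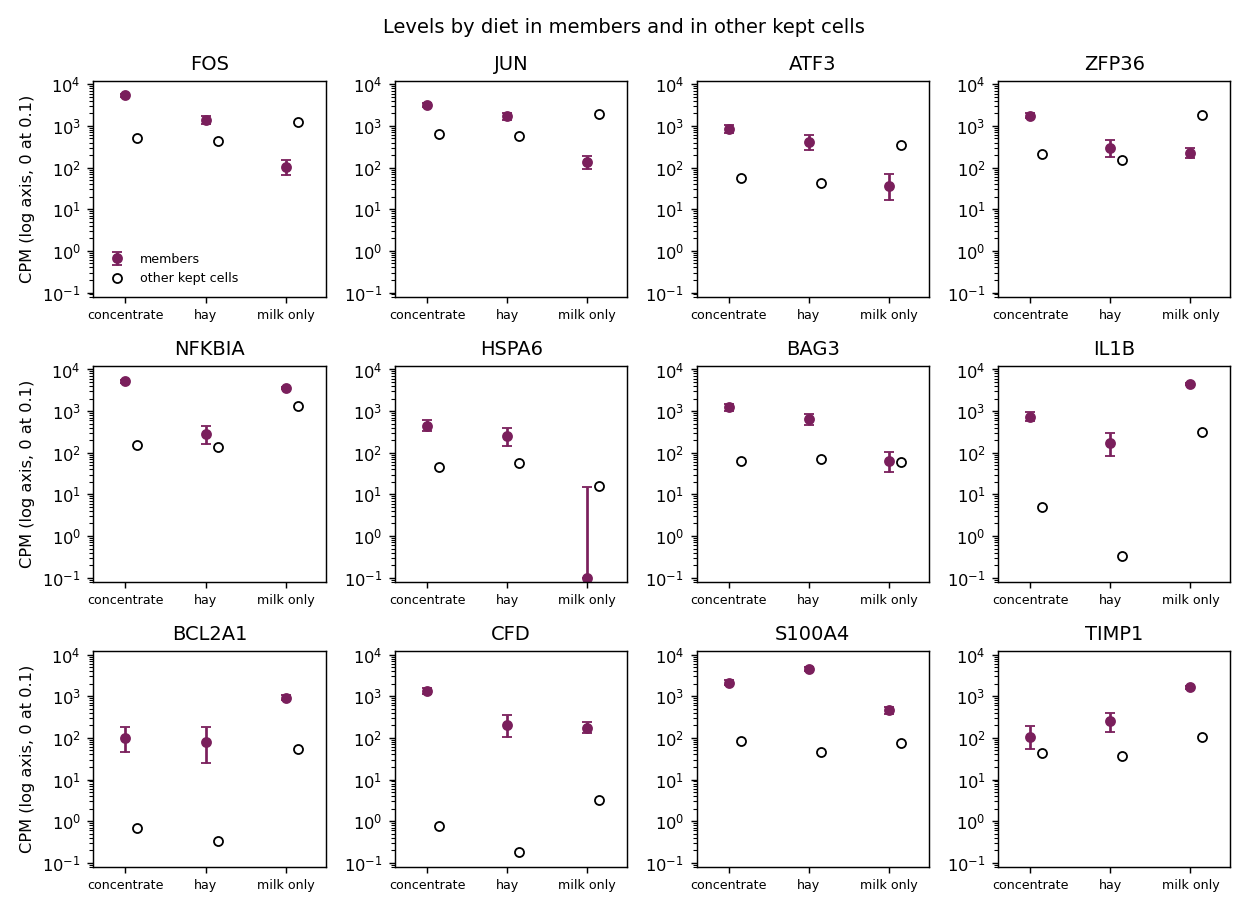
Levels in CPM (log axis, 0 drawn at 0.1) of 12 genes by diet in members (filled, with exact 95% Poisson intervals) and in other kept cells (open). FOS, JUN and ATF3 are highest in concentrate members and lowest in milk-only members while the open points are highest with milk only, and IL1B and BCL2A1 are highest in milk-only members.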

How the data were processed

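Rumen epithelium was digested with trypsin-EDTA, passed through a mesh and profiled by 10x droplet sequencing, per the labels' protocols. As deposited, each library was a sparse table of unnormalised UMI counts, written by Cell Ranger 5.0.0 per the file headers, while the submitters' processing notes name version 3.1. The genome build, the annotation and the removal of empty droplets are not described there. From the counts, cells were filtered and chosen by the rule in the report, UMIs were summed per library, and CPM, ratios and exact 95% intervals (Poisson, conditional binomial, Clopper-Pearson) were computed with scipy 1.17.1 under Python 3.11.15, on tables held in pandas 2.3.3 and numpy 2.4.6, and drawn with matplotlib 3.10.9. UMI totals per library were 60220174 for concentrate, 56861548 for hay and 63057979 for milk only. No doublet caller was run. Against a gene at 0, ratios used 3 counts over the summed group.

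Members and gene lists were chosen with earlier results of these data known. Named genes were the 30 with the largest lowest fold over other cells, the 10 highest and 10 lowest per diet comparison by the interval bound nearest to 1, the 10 leading genes on each side of the C1q split, and list members by level or ratio. CD3D, CD3E, CD3G, CD68, CD163, CLEC9A, BATF3, CCR7, CD44, PTPRC and FSCN1 were added after their values were seen. One gene that met the rule is not reported here. Counts were also simulated as Poisson draws, with 200 of 1045 genes set well past the limit of 2-fold. Of these, 92.5%, 93.5% and 91.5% were recovered for concentrate over milk only, hay over milk only and concentrate over hay. Of unchanged genes, 1.89%, 5.33% and 6.75% passed 2-fold. The draws held counting error only, without the spread between cells. These rates thus leave out error from single members rich in a gene. Alternatives changed the marker minimum, gene and UMI minimums, CPM minimum, scaling, thinning, weighting of members, subtraction of carried-over RNA and the CD2 and IL7R limit.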

Additional observations from a re-analysis of the deposited data

Results flagged for a closer look

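Cells outside the members carried the same marker RNA. The limit on CD2 and IL7R set aside 11 concentrate, 6 hay and 79 milk-only kept cells with at least 3 marker UMIs. With C1QA at 5137, 4696 and 1762 CPM and no CD3D, CD3E or CD3G UMI, they held 30.6%, 28.6% and 81.4% of marker-positive kept cells in the concentrate, hay and milk-only libraries. Among barcodes that failed the cell filters, 5 of the concentrate library met the marker rule, against 1 of the hay library and 2 of the milk-only library, and all 8 failed on their mitochondrial share.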

How the results depend on the processing

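No paired analysis was possible because each diet had 1 library, and no replicate could be left out. The member share of concentrate over milk only was 0.522 with cells thinned to 2000 UMIs, 0.292 without the CD2 and IL7R limit and 0.358 with both, against 1.09. Hay over milk only was 0.193, 0.119 and 0.155, against 0.456. The limit was lifted after seeing the data. Counts of genes 2-fold apart for concentrate over milk only, hay over milk only and concentrate over hay were 168, 205 and 110 at 200 CPM or more and 797, 919 and 770 at 50 CPM or more, where fewer and more genes were compared. Subtracting carried-over RNA gave 708 for hay over milk only, and the cause was not tested. Without the limit, 213 of 386, 286 of 460 and 188 of 339 genes kept their call. The named genes of the diet comparisons had been chosen for large ratios in these same cells. The 200 and 50 CPM minimums cannot change a ratio, and values missing under a setting were not counted. A high count of unchanged calls was thus largely set beforehand. Of 723 values of named genes under these settings, 715 stayed at least 2-fold apart in the same direction, 7 fell below 2-fold and 1 turned. The last was PECAM1, whose log2 ratio of concentrate over milk only was 0.0012 in C1q-zero members. S100A4, at a minimum of 1000 genes or in C1q-positive members alone, and DNMT1, without the limit, were among the 7, for concentrate over hay. Depth limits genes of few UMIs, and diet, animal and library cannot be told apart.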
